A study of Mus musculus with 22 samples.

Results

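Heat shock chaperones of the cytosol and of mitochondria are described here in the hypothalamus of mice carrying Lewis lung carcinoma. The set was a list of 44 gene symbols, drawn up by function with earlier results of these data known. It covered Hsp70 and Hsp110 proteins, Hsp90, mitochondrial chaperones, small heat shock proteins, J-domain proteins, cochaperones, heat shock factors and subunits of the TRiC chaperonin. An array probe set paired with 1 gene alone was found for 39 of the 44 members, out of 18820 genes measured in all. The other 5, Hspa1a, Hspa1b, Hsp90ab1, Cryab and Hsf1, were not analysed here.

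Chaperones bind unfolded or partly folded proteins and help them reach or keep their native form. Hsp70 works in cycles of binding and release that J-domain proteins start and nucleotide exchange factors such as Hsp110 end, and clients such as steroid receptors and kinases then pass to Hsp90 with the help of cochaperones. Many of these genes are transcribed more when proteins unfold, as in fever or heat, through heat shock factor 1, which binds repeated heat shock elements in their promoters. Neurons keep a high basal level of several of them, among them Hspa8 and the Hsp90 genes.

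The mice were male C57BL/6 animals, aged 6 weeks at inoculation. In the tumour-bearing groups, Lewis lung carcinoma cells, a transplantable mouse tumour, had been injected into hind leg muscle under general anaesthesia. After inoculation, 5 mice were killed on day 10, 7 on day 14 and 6 on day 17, beside 4 control mice on day 14, and the hypothalamus was frozen. Whether controls received a mock injection is not given in the sources used here. All groups shared a ketamine and xylazine anaesthesia before death, individual housing and an ad libitum diet. Only day 14 had controls, so a comparison of day 10 or day 17 with control sets mice of different days against each other. Each array held the RNA of 1 mouse, and only RNA with an integrity number above 8 was used, per the labels' protocols. Values are log2 array values. Differences between groups are log2 changes with the standard error (SE) of a model over all 22 arrays, and the threshold for a call was an adjusted p below 0.05, by the Benjamini-Hochberg method over all 18820 genes. All 39 members lay above the background measure of 3.87 on every array, and their means over arrays ran from 5.86 for Bag3 to 11.97 for Hspa8. Levels of different genes come from different probes and are not set against each other. In whole tissue, fewer cells of a type and less RNA per cell cannot be told apart.

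The promoters of the members were searched for heat shock elements, the sequence through which heat shock factors bind. RefSeq promoter windows (GRCm38.p6) were at hand for 36 of the 44 members. In the 250 bases before the start site, an element of 3 units, GAANNTTCNNGAA or its reverse complement TTCNNGAANNTTC, was matched in 3 of the 36 members (8.33%), namely Hspd1, Hspe1 and Dnajb6. The same element was matched in 0.514% of all 27025 genes in the table. A shorter element of 2 units, GAANNTTC or TTCNNGAA, each its own reverse complement, was matched in 14 of the 36 members (38.89%) and in 14.549% of all genes, and every match of 3 units contains matches of 2 units. Among the 7 members in the table that were called lower on day 17, Hspe1 had both elements, Hsph1 and Fkbp4 had the shorter one, and Dnajb1, Hspa4l, Stip1 and Chordc1 had neither within the window. Hspd1 and Hspe1, which encode the mitochondrial chaperonin and its lid, are transcribed away from each other, so both counts rest on the same stretch of DNA. A match describes these letters only, and none shows that a factor binds there. The promoters of the called members that held a match are printed 5′ to 3′ in the direction of the gene named (Hspe1 for the shared stretch), with capitals marking the matched bases. The shared stretch lies between both start sites (chr1:55087933-55088147, plus strand), and its matches form 1 run of 18 bases that begins 89 bases before the start of Hspe1. The Hsph1 window (chr5:149636337-149636586, minus strand) has its match 33 to 26 bases before the start, and the Fkbp4 window (chr6:128438657-128438906, minus strand) has its match 151 to 144 bases before it.
Hspd1-Hspe1: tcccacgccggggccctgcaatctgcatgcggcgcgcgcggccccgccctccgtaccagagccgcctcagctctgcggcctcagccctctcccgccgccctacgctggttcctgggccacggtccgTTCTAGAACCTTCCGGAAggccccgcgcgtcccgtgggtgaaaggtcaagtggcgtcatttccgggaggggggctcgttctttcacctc
Hsph1: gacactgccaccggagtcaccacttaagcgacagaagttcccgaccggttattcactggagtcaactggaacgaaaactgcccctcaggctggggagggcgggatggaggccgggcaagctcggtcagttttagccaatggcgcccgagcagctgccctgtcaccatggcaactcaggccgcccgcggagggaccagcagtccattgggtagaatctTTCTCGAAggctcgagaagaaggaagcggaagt
Fkbp4: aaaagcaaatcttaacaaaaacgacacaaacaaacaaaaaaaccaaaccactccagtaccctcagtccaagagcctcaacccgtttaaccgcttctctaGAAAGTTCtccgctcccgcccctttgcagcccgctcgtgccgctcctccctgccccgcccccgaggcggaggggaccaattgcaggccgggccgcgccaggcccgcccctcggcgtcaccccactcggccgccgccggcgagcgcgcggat

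Some of the chaperone genes fell in tumour-bearing mice by day 17, and most did not pass the threshold. On that day 8 of 39 members fell and 0 rose (limma), against 0.685% of all genes that fell and 1.12% that changed in either direction. The 8 were the J-domain gene Dnajb1, the mitochondrial cochaperonin Hspe1, the Hsp110 genes Hsph1 and Hspa4l, and the cochaperone genes Stip1, St13, Chordc1 and Fkbp4. Their log2 changes ran from -0.55 to -0.30, which leaves 68.3% to 81.3% of the control level. On day 14, 0 of 39 members passed the limma threshold (0.218% of all genes did), and 15 members had an unadjusted p below 0.05, all with a lower mean (6.18% of all genes were lower at that p). On day 10, 0 members passed in limma (0.106% of all genes did), and 8 had an unadjusted p below 0.05, of which 7 were lower (5.43% of all genes) and 1, Hspa2, was higher. The median change over the 39 members was -0.07 on day 10, -0.09 on day 14 and -0.13 on day 17, beside 0.00, -0.00 and -0.01 over all genes. A mean below the controls was seen in 33, 35 and 35 members on the 3 days, beside 49.7%, 52% and 53.7% of all genes. At an unadjusted p below 0.05, 21 members were lower on day 17 and 0 higher (10.5% of all genes were lower at that p, and 16.6% differed in either direction). All 3 comparisons share the same 4 controls, so they are not independent of each other.

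**Figure D1:**
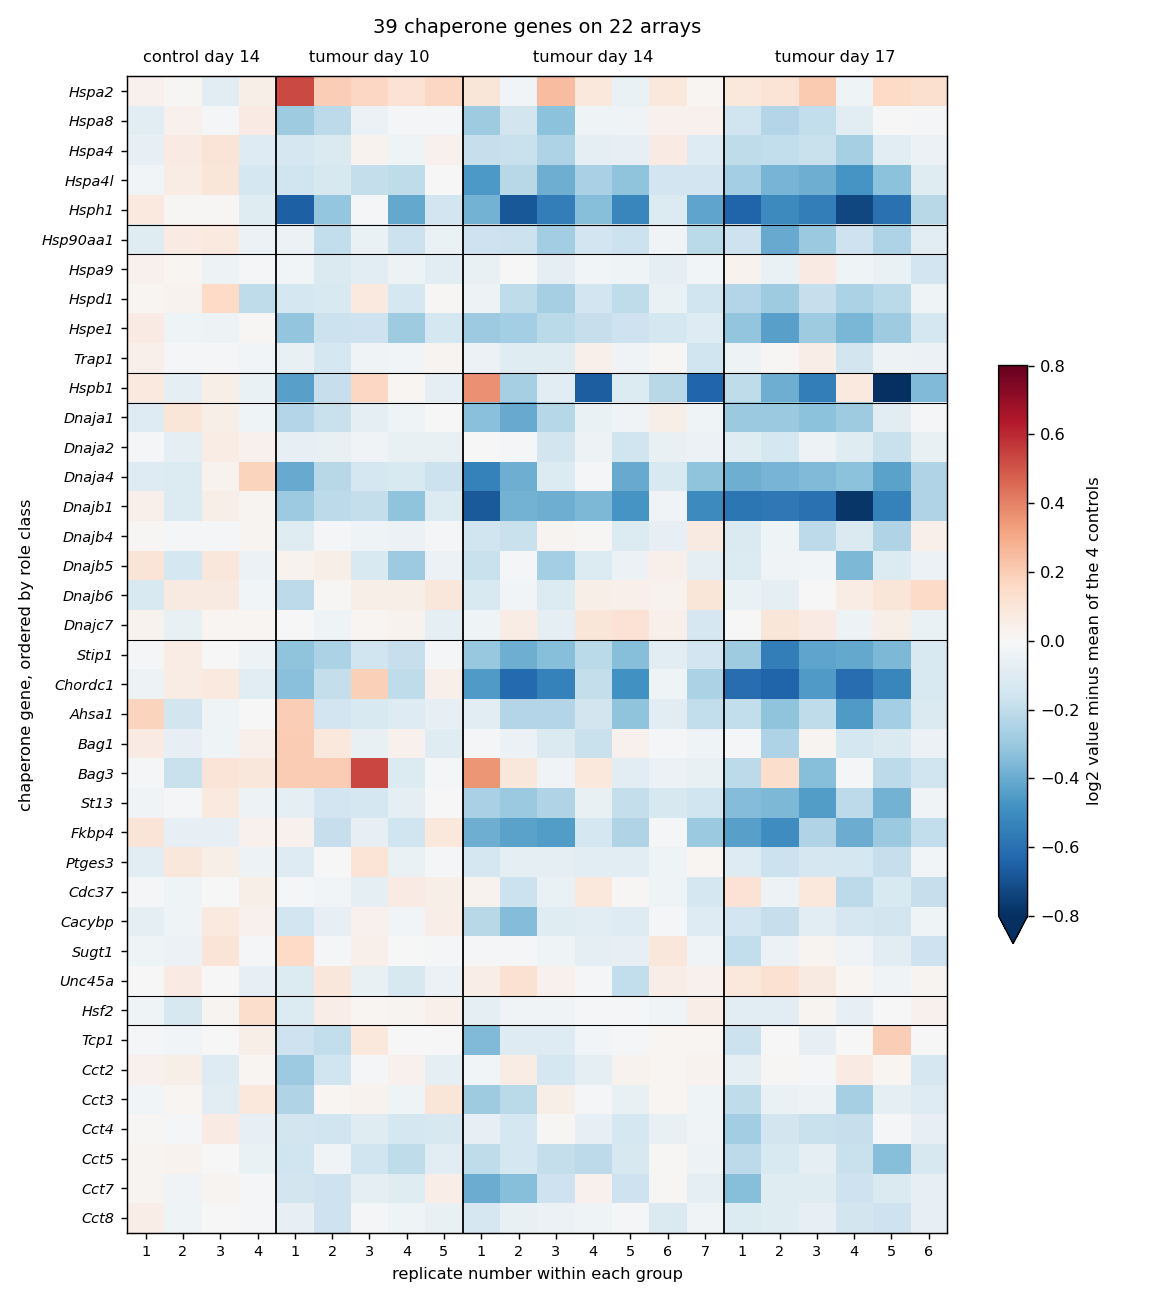
Log2 value minus the mean of the 4 controls for each of the 39 measured chaperone genes (rows, ordered by role class, horizontal lines between classes) in each of the 22 mice (columns, by group and replicate number). Blue is below and red above the control mean, and 1 value of Hspb1 lies below the end of the colour scale. The rows of Hsph1, Dnajb1, Stip1 and Chordc1 are blue in most tumour-bearing mice, while those of Dnajb6, Dnajc7, Unc45a and Hsf2 stay pale.

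**Figure D2:**
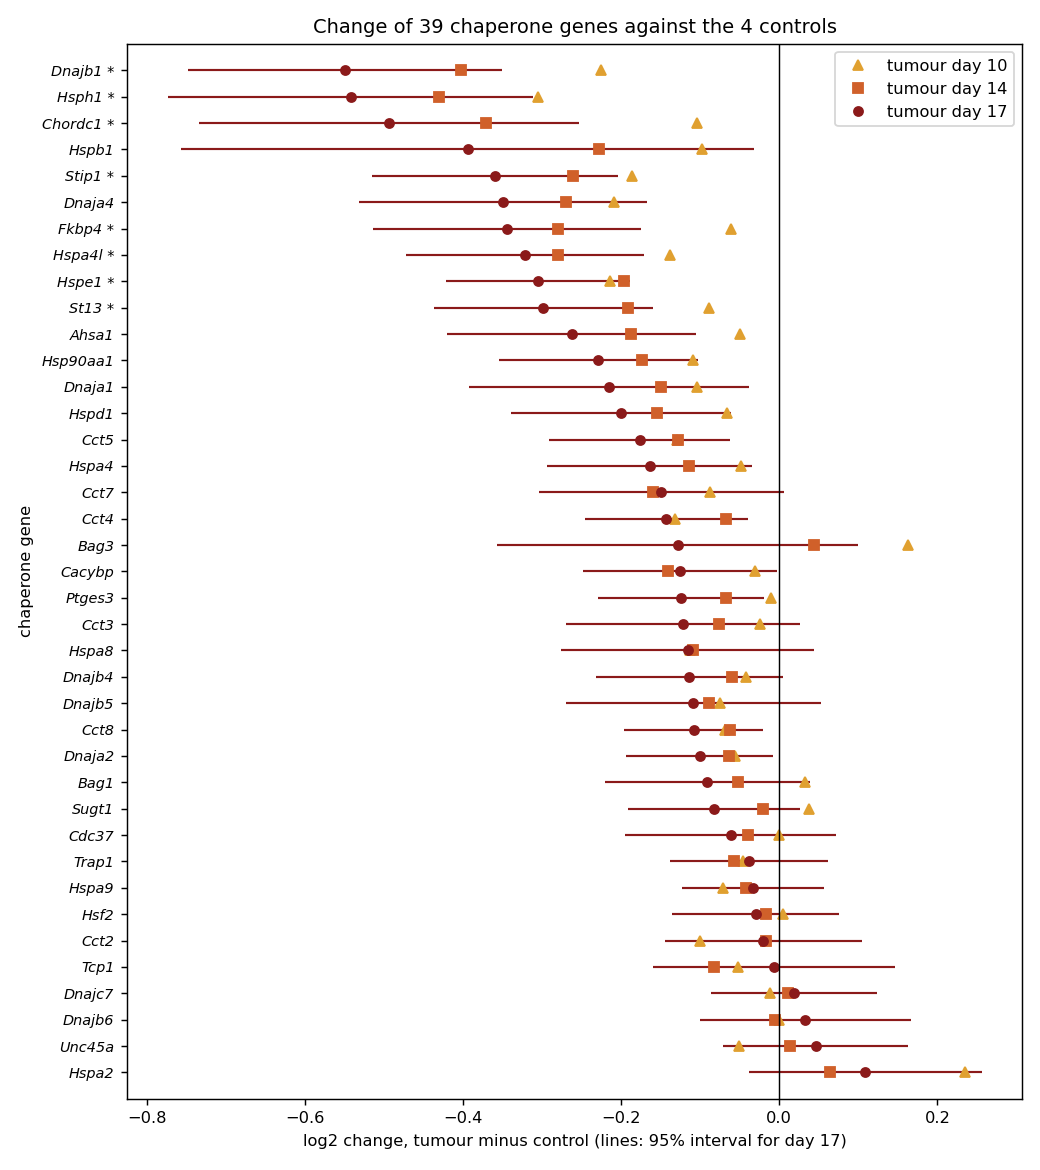
Log2 change against the 4 controls (horizontal axis) for each of the 39 members (vertical axis, ordered by the day 17 change) on tumour days 10 (triangles), 14 (squares) and 17 (circles), with 95% intervals of the day 17 change as lines. Asterisks mark the 8 members called lower on day 17. Most points lie left of 0, and for Dnajb1, Hsph1, Chordc1 and Stip1 the change was lowest on day 17.

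Among the Hsp70 and Hsp110 genes, 5 of 7 were measured and 2 fell on day 17 (0.685% of all genes did), both of the Hsp110 branch. Hsph1 encodes Hsp105, a heat-inducible nucleotide exchange factor for Hsp70. Its values were 9.91, 9.84, 9.84 and 9.73 in the controls. On day 10 they were 9.18, 9.52, 9.82, 9.42 and 9.68, on day 14 they ran from 9.15 (median 9.41) to 9.72, and on day 17 from 9.10 (median 9.25) to 9.61. All mice of days 14 and 17 lay below every control, and 4 of 5 did on day 10. The change was -0.31 ± 0.12 (SE) on day 10 (limma adjusted p = 0.358), -0.43 ± 0.11 on day 14 (adjusted p = 0.104) and -0.54 ± 0.11 on day 17 (adjusted p = 0.0220), or 68.7% of the control level. Its promoter is the one printed above with a single short element.

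Hspa4l, a second Hsp110 relative, had 9.38, 9.46, 9.50 and 9.26 in the controls. It read 9.24, 9.27, 9.21, 9.20 and 9.40 on day 10, 8.94 to 9.25 (median 9.14) on day 14 and 8.93 to 9.30 (median 9.05) on day 17. All 7 mice of day 14 lay below every control, while 1 of 6 on day 17 overlapped them. Its change was -0.14 ± 0.08, -0.28 ± 0.07 and -0.32 ± 0.07 on the 3 days (limma adjusted p = 0.53, 0.104 and 0.0331). Hspa4, another Hsp110 relative, had -0.05 ± 0.06, -0.11 ± 0.06 and -0.16 ± 0.06, with 0 calls. Hspa8, the constitutive Hsp70 of the cytosol, differed by -0.11 ± 0.08, -0.11 ± 0.07 and -0.12 ± 0.08, and its 3 probe sets gave -0.14, -0.12 and -0.12 on day 17. Hspa2, an Hsp70 known best from testis, went the other way. Its mean was higher by 0.24 ± 0.07 on day 10 (unadjusted p = 0.00416, limma adjusted p = 0.264), 0.06 ± 0.07 on day 14 and 0.11 ± 0.07 on day 17. On day 10 all 5 mice lay above every control (7.12 to 7.53 against 6.91 to 7.05), a pattern seen in 1 of 39 members and 2.21% of all genes.

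Hsp90aa1, the stress-inducible Hsp90 of the cytosol and the only cytosolic Hsp90 gene measured, did not pass the threshold. It read 11.13, 11.29, 11.30 and 11.18 in the controls and 11.18, 11.03, 11.17, 11.05 and 11.17 on day 10. On day 14 it ran from 10.95 (median 11.05) to 11.20, and on day 17 from 10.82 (median 11.02) to 11.14. Of the day 17 mice 5 of 6 lay below every control. The change was -0.11 ± 0.06, -0.17 ± 0.06 and -0.23 ± 0.06 (limma adjusted p = 0.552, 0.263 and 0.0673), and its 3 probe sets gave -0.23, -0.23 and -0.26 on day 17.

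All 4 mitochondrial chaperone genes on the list were measured and 1 fell on day 17 (0.685% of all genes did). Hspe1 encodes Hsp10, the lid that closes the Hsp60 folding chamber of the mitochondrial matrix. Control values were 8.92, 8.82, 8.81 and 8.86. They were 8.54, 8.68, 8.69, 8.57 and 8.71 on day 10, 8.56 to 8.75 (median 8.67) on day 14, and 8.42 to 8.71 (median 8.55) on day 17. Every one of the 18 tumour-bearing mice lay below every control. The change was -0.21 ± 0.06 on day 10 (limma adjusted p = 0.185), -0.20 ± 0.05 on day 14 (adjusted p = 0.147) and -0.30 ± 0.06 on day 17 (adjusted p = 0.0096), or 81.0% of the control level. A second probe set of Hspe1 gave -0.29 on day 17. Hspd1, which encodes the Hsp60 chamber and starts from the same stretch of DNA, had smaller changes of -0.07 ± 0.07, -0.16 ± 0.07 and -0.20 ± 0.07, and passed on 0 days (limma adjusted p = 0.138 on day 17). The matrix Hsp70 gene Hspa9 and the mitochondrial Hsp90 gene Trap1 differed little from the controls on day 17, by -0.03 ± 0.04 and -0.04 ± 0.05.

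Of the small heat shock proteins, which hold unfolding proteins without using ATP, Hspb1 (Hsp27) was the 1 measured. Its controls lay close together at 6.40, 6.25, 6.37 and 6.27, and tumour-bearing mice were widely spread. They read 5.89, 6.14, 6.49, 6.34 and 6.25 on day 10, 5.66 to 6.69 (median 6.10) on day 14 and 5.37 to 6.40 (median 5.95) on day 17. On day 17, 5 of 6 mice lay below every control. The changes of -0.10 ± 0.18, -0.23 ± 0.17 and -0.39 ± 0.17 were not called (limma adjusted p = 0.876, 0.668 and 0.263). A second probe set gave -0.41 on day 17, and the remaining one, whose mean of 3.86 lay at background, gave -0.09. Hspb3, Hspb6, Hspb7, Hspb8 and Hspb11 were measured too but are outside the list of members. On day 17 they changed by 0.09 ± 0.09, 0.21 ± 0.12, 0.03 ± 0.12, 0.02 ± 0.10 and -0.02 ± 0.10, with 0 called. Hspb7 had a mean of 3.5, below the background measure.

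The 8 J-domain genes, whose products recruit Hsp70 to its clients, split. Dnajb1, the heat-inducible Hsp40, had the lowest adjusted p of all members. Controls read 7.75, 7.60, 7.76 and 7.73. Day 10 mice read 7.42, 7.50, 7.52, 7.39 and 7.60, day 14 mice 7.04 to 7.68 (median 7.32), and day 17 mice 6.93 to 7.47 (median 7.14). All mice of days 10 and 17 lay below every control, and 6 of 7 did on day 14. The change was -0.23 ± 0.10 on day 10 (limma adjusted p = 0.427), -0.40 ± 0.09 on day 14 (adjusted p = 0.0769) and -0.55 ± 0.10 on day 17 (adjusted p = 0.00534), or 68.3% of the control level. Dnaja4 had -0.21 ± 0.09, -0.27 ± 0.09 and -0.35 ± 0.09 and fell just short on day 17 (limma adjusted p = 0.0528), with all mice of days 10 and 17 below every control. Dnaja1 had -0.22 ± 0.09 on day 17, and its second probe set gave -0.36. Dnaja2, Dnajb4 and Dnajb5 had day 17 changes from -0.11 to -0.10. Dnajb6 and Dnajc7, which suppress aggregation and link Hsp70 to Hsp90, stayed within 0.03 of the controls on all 3 days.

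Of the 12 cochaperone genes, 4 fell on day 17 (0.685% of all genes did). Stip1 encodes Hop, the adaptor that joins Hsp70 to Hsp90. It read 10.06, 10.13, 10.07 and 10.03 in the controls and 9.75, 9.82, 9.91, 9.89 and 10.06 on day 10. It ran from 9.68 (median 9.77) to 9.99 on day 14 and from 9.52 (median 9.69) to 9.95 on day 17. All mice of days 14 and 17 lay below every control. The change was -0.19 ± 0.08, -0.26 ± 0.07 and -0.36 ± 0.08 (limma adjusted p = 0.403, 0.154 and 0.0237), and 77.9% of the control level was left on day 17.

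St13 encodes Hip, which stabilises Hsp70 with bound client. Its controls read 9.32, 9.34, 9.43 and 9.31, and day 10 mice read 9.27, 9.20, 9.21, 9.28 and 9.35. Day 14 mice ran from 9.05 (median 9.16) to 9.29, all below every control, and day 17 mice from 8.90 (median 8.99) to 9.32, with 1 of 6 among the controls. The change was -0.09 ± 0.07, -0.19 ± 0.07 and -0.30 ± 0.07 (limma adjusted p = 0.667, 0.263 and 0.0328), and a second probe set gave -0.26 on day 17.

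Chordc1 encodes the Hsp90-binding protein CHP-1, and Fkbp4 encodes FKBP52, the immunophilin that tethers steroid receptor complexes to dynein. For both, day 10 resembled the controls more than the later days did. Chordc1 read 8.56, 8.66, 8.68 and 8.51 in the controls and 8.27, 8.41, 8.79, 8.40 and 8.64 on day 10, with 1 day 10 mouse above every control. It ran from 7.98 (median 8.15) to 8.57 on day 14 and from 7.96 (median 8.04) to 8.48 on day 17. Its change was -0.10 ± 0.12, -0.37 ± 0.11 and -0.49 ± 0.12 (limma adjusted p = 0.786, 0.203 and 0.0408), and all 6 mice of day 17 lay below every control. Fkbp4 read 8.59, 8.42, 8.42 and 8.52 in the controls and 8.52, 8.30, 8.42, 8.33 and 8.57 on day 10. It ran from 8.04 (median 8.19) to 8.47 on day 14 and from 7.99 (median 8.14) to 8.29 on day 17. Its change was -0.06 ± 0.09, -0.28 ± 0.08 and -0.34 ± 0.08 (limma adjusted p = 0.828, 0.166 and 0.0417), again with all 6 mice of day 17 below every control.

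The other 8 cochaperone genes had 0 calls. Ahsa1, the activator of the Hsp90 ATPase, had -0.05 ± 0.08, -0.19 ± 0.07 and -0.26 ± 0.08 (limma adjusted p = 0.0918 on day 17). Ptges3 (p23) and Cacybp had -0.12 ± 0.05 and -0.13 ± 0.06 on day 17. Bag1 and Bag3, nucleotide exchange factors that link Hsp70 to degradation, had -0.09 ± 0.06 and -0.13 ± 0.11 on day 17 after means above the controls on day 10, by 0.03 ± 0.06 and 0.16 ± 0.11. Sugt1, Cdc37 (the kinase adaptor of Hsp90) and the myosin chaperone gene Unc45a lay between -0.08 and 0.05 on day 17.

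**Figure D3:**
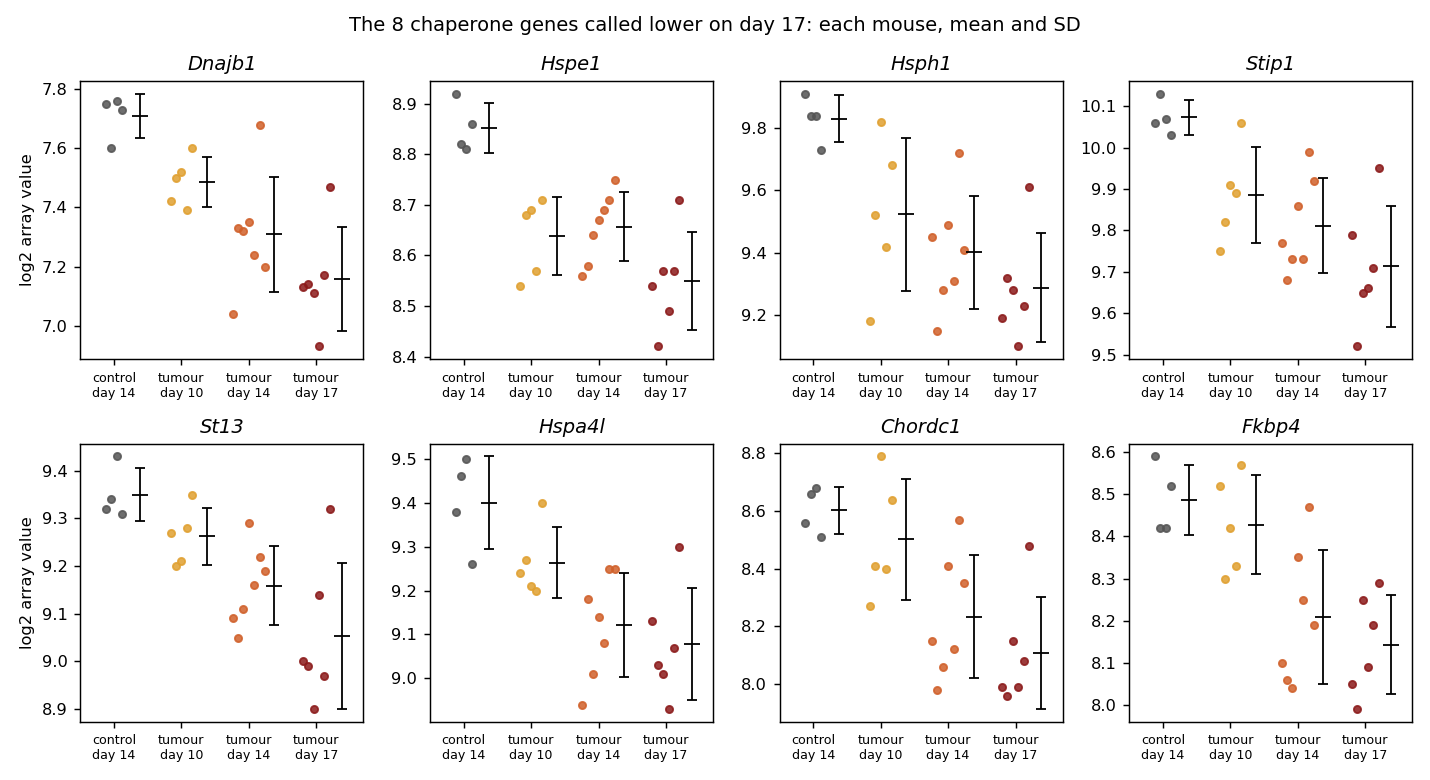
Log2 array value (vertical axes, each with its own range that does not start at 0) of the 8 genes called lower on day 17, with 1 point per mouse in the 4 groups (horizontal axes) and the mean ± SD beside the points. In Hspe1 all tumour-bearing mice lie below the lowest control at 8.81, and in all 8 plots the highest day 17 point is the same mouse, replicate 6.

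Hsf2, the 1 heat shock factor measured among the listed members, was level. It read 7.18, 7.09, 7.24 and 7.36 in the controls and 7.11, 7.27, 7.23, 7.24 and 7.26 on day 10. It ran from 7.14 (median 7.19) to 7.27 on day 14 and from 7.13 (median 7.18) to 7.25 on day 17, and 0 tumour-bearing mice lay outside the range of the controls. Its change was 0.01 ± 0.05, -0.02 ± 0.05 and -0.03 ± 0.05 (limma adjusted p = 0.984, 0.934 and 0.809), with a 95% interval of -0.14 to 0.08 on day 17.

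The TRiC chaperonin folds actin and tubulin in the cytosol. All 7 subunit genes on the list were measured, 0 passed the limma threshold on any day, and 3 had an unadjusted p below 0.05 on day 17, all lower (10.5% of all genes). Day 17 changes ran from -0.18 to -0.01. Cct5 had the smallest p of the class. Its controls read 8.67, 8.68, 8.65 and 8.60, and day 10 mice 8.49, 8.62, 8.49, 8.45 and 8.56. Day 14 mice ran from 8.44 (median 8.51) to 8.66, and day 17 mice from 8.31 (median 8.49) to 8.57, all below every control. The change was -0.13 ± 0.06, -0.13 ± 0.05 and -0.18 ± 0.06 (limma adjusted p = 0.43, 0.398 and 0.114). Cct7 and Cct8 also had all day 17 mice below every control, with -0.15 ± 0.07 and -0.11 ± 0.04, while Tcp1 and Cct2 had -0.01 ± 0.07 and -0.02 ± 0.06.

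Separation of single mice followed the same pattern over the set. On day 17, 10 of 39 members had all 6 mice below every control (3.3% of all genes), namely Hsph1, Hspe1, Dnaja4, Dnajb1, Stip1, Chordc1, Fkbp4, Cct5, Cct7 and Cct8. On day 14, 5 members had all 7 mice below every control (1.06% of all genes): Hspa4l, Hsph1, Hspe1, Stip1 and St13. On day 10, 4 members did (2.24% of all genes): Hspe1, Dnaja4, Dnajb1 and Cct4. With more mice in a group such separation is harder to reach, so the 3 counts are not set against each other.

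Between tumour days 0 of 39 members passed the limma threshold (0.00531% of all genes from day 10 to day 14, and 0% from day 10 to day 17, from day 14 to day 17 and along a straight line over the 3 days). From day 10 to day 17, 14 members had an unadjusted p below 0.05 and all 14 had a lower mean on day 17 (5.22% of all genes were lower at that p). The 3 with the smallest p were Fkbp4, at -0.28 ± 0.08, Dnajb1, at -0.32 ± 0.09, and Chordc1, at -0.39 ± 0.11 (limma adjusted p = 0.323 for each). From day 10 to day 14, 4 members had an unadjusted p below 0.05, all lower (4.09% of all genes), and from day 14 to day 17 only Hspe1 did, at -0.11 ± 0.05 (2.35% of all genes). Along the line 14 members had an unadjusted p below 0.05, all falling (5.47% of all genes), with Fkbp4 at -0.04 ± 0.01 per day (limma adjusted p = 0.286). The 4 group means fell in the order control, day 10, day 14, day 17 in 19 of 39 members (9.96% of all genes), and day 17 had the lowest mean in 29 (29.5% of all genes). An order that begins at the controls uses the comparison with control again.

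A few mice stood apart within their group over the whole set. Tumour day 17 replicate 6 was the highest of its group in 21 of 39 members, and its mean difference from the controls was -0.08, against -0.21 to -0.16 in the other 5 mice of that day. Tumour day 14 replicate 6 was the highest in 14 members, with a mean difference of -0.03 against -0.18 to -0.09. On day 10, replicates 3 and 5 lay nearest to the controls, both at -0.02, against -0.12 to -0.09 in the other 3.

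The count of 8 on day 17 depended on single arrays. It was 1 without control replicate 1, 2 without control replicate 2 and 2 without control replicate 3. Calls over all genes were 37, 59 and 56 in these 3 fits, against 211 with all arrays. Leaving out tumour day 17 replicates 1, 2, 3, 4 or 5 gave 5, 3, 4, 3 and 4. Calls over all genes were then 141, 94, 108, 74 and 100. Dnajb1 kept its call in all 22 fits that left out 1 array (highest limma adjusted p = 0.0377), Hspe1 in 21, Hsph1 in 18, Stip1 in 17, Hspa4l and St13 in 15, Chordc1 in 13 and Fkbp4 in 12. The sizes moved little in these fits, with the change of Dnajb1 between -0.61 and -0.50 and that of Hspe1 between -0.34 and -0.28.

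The sample numbers formed 2 runs, of 9 and 13 arrays, each with mice of all 4 groups, and the labels name neither a batch. In the later run, with 3 controls and 3 day 17 mice, 14 of 39 members had all day 17 mice below every control (12.1% of all genes). Within that run the 8 genes had changes from -0.51 (Dnajb1) to -0.22 (St13), and in the earlier run, with 1 control and 3 day 17 mice, from -0.65 (Hsph1) to -0.32 (Hspa4l). In the later run alone 0 members passed the limma threshold, as did 0 of all genes. The earlier run holds a single control, so only sizes are given for it. The 8 genes had been chosen on the same arrays, so these values are no independent support.

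Marker lists were read for tissue that moved along with the chaperones. Markers of the hypothalamus were present, with 18 of 19 above background and list means of 7.32 to 7.65 in the controls. Markers of the thalamus, which borders on it, had list means of 6.26 to 7.37 in the controls, 6.25 to 6.63 on day 10, 6.20 to 7.01 on day 14 and 6.21 to 6.84 on day 17, and control replicates 1 (6.95) and 3 (7.37) were among the highest. All 14 thalamus markers had a lower mean on day 17, with 0 called by limma and 5 at an unadjusted p below 0.05 (10.5% of all genes were lower at that p). With their mean as a covariate the count on day 17 was 3 (93 of all genes were called), with the 8 genes between -0.58 and -0.28. Without the 4 arrays highest in these markers, which leaves 2 controls, it was 0, and 0 of all genes were called. The 8 genes then lay between -0.50 and -0.26 (limma adjusted p from 0.299 to 0.418). This second fit was chosen after the data were seen. Of 9 neuron markers, 9 had a lower mean on day 17 (53.7% of all genes did). At an unadjusted p below 0.05, 5 of the 9 were lower (10.5% of all genes). Among them 1, Nefl, fell (-0.23 ± 0.06, limma adjusted p = 0.0445), beside 0.685% of all genes. Neuron list means were 10.33 to 10.45 in the controls and 10.18 to 10.34 on day 17. Red cell markers had list means of 4.49 to 5.02 in the controls and 5.23 to 5.98 on day 17, with 2 of 6 called higher (1.12% of all genes were called in either direction). Of 11 microglia markers 10 had a lower mean on day 17 (53.7% of all genes did), and 2 were lower at an unadjusted p below 0.05 (10.5% of all genes). Among them 1, Fcrls, fell (-0.70 ± 0.09, limma adjusted p = 0.00104), beside 0.685% of all genes. Of 9 ependymal markers, 9 had a lower mean on day 17 (53.7% of all genes did), and 4 were lower at an unadjusted p below 0.05 (10.5% of all genes). Among them 1, Tmem212, fell (-0.41 ± 0.09, limma adjusted p = 0.0264), beside 0.685% of all genes. Ependymal list means were 5.60 to 5.81 in the controls and 5.36 to 5.70 on day 17. Of 9 endothelial markers, 8 had a higher mean on day 17, 0 were called by limma and 3 had an unadjusted p below 0.05 (16.6% of all genes in either direction). Their list means were 6.86 to 7.01 in the controls and 6.95 to 7.27 on day 17. The part of neuron, red cell, microglia, ependymal and endothelial RNA in the chaperone changes was not tested.

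Other chaperone genes were read from lists beyond the 39 members. Of 42 other cytosolic chaperones and cochaperones, 0 passed in limma on day 17 (1.12% of all genes did). At an unadjusted p below 0.05 there were 7, 6 of them lower, close to the 16.6% of all genes. A lower mean was seen in 28 of the 42, beside 53.7% of all genes, and the median change was -0.04. Fkbp5 encodes FKBP51, an Hsp90 cochaperone that glucocorticoids induce. It rose on day 14 by 0.64 ± 0.12 (limma adjusted p = 0.0146), with 0.57 ± 0.13 on day 10 and 0.47 ± 0.12 on day 17 (adjusted p = 0.0945 and 0.0579). Its mean was thus higher where that of Fkbp4, the related immunophilin of Hsp90 complexes, was lower. Of 16 other mitochondrial chaperones and proteases 0 passed in limma on day 17, with 13 lower (53.7% of all genes were) and a median of -0.05. At an unadjusted p below 0.05 there were 2, both lower, namely Grpel2, at -0.15 ± 0.07, and Phb, at -0.14 ± 0.06, a share near the 10.5% of all genes.

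Endoplasmic reticulum chaperones fold secreted and membrane proteins and answer to the unfolded protein response. Of 17 measured, 14 had a lower mean on day 17 (53.7% of all genes did), with a median change of -0.18, and 2 fell (0.685% of all genes). Calr, the calcium-binding lectin chaperone calreticulin, fell by 0.24 ± 0.06 (limma adjusted p = 0.0424), and Manf, a secreted protein induced by reticulum stress, fell by 0.21 ± 0.05 (adjusted p = 0.0414). On days 10 and 14, 0 of the 17 passed in limma, and 1 and 3 had an unadjusted p below 0.05, all lower (5.43% and 6.18% of all genes). On day 17, 10 of the 17 did, all lower (10.5% of all genes).

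Rbm3 and Cirbp encode RNA-binding proteins that rise when cells are cooled, the reverse of the heat shock genes. They were taken up because their values in these data were already known. Cirbp read 7.88, 7.88, 7.84 and 8.21 in the controls, and on day 17 it read 8.11 in replicate 6 and 8.60 to 8.75 in the other 5 mice. It rose on day 17 by 0.63 ± 0.11 (limma adjusted p = 0.00832), with 0.25 ± 0.12 on day 10 and 0.43 ± 0.11 on day 14 (adjusted p = 0.465 and 0.116). Rbm3 rose on day 14 by 0.77 ± 0.16 (limma adjusted p = 0.0435) and on day 17 by 1.10 ± 0.17 (adjusted p = 0.00226), with 0.47 ± 0.17 on day 10 (adjusted p = 0.34). The mice of days 14 and 17 that stood nearest to the controls in the chaperones, replicate 6 of each day, both read 8.11 for Cirbp, the lowest value of their group. For Rbm3, day 17 replicate 6 was also the lowest of its group, at 9.97. On day 14 replicate 6 read 9.93 for Rbm3, and replicate 1 was lower, at 9.78. Over the 8 called chaperone genes that replicate 1 lay -0.40 from the controls, against -0.09 for replicate 6.

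**Figure D4:**
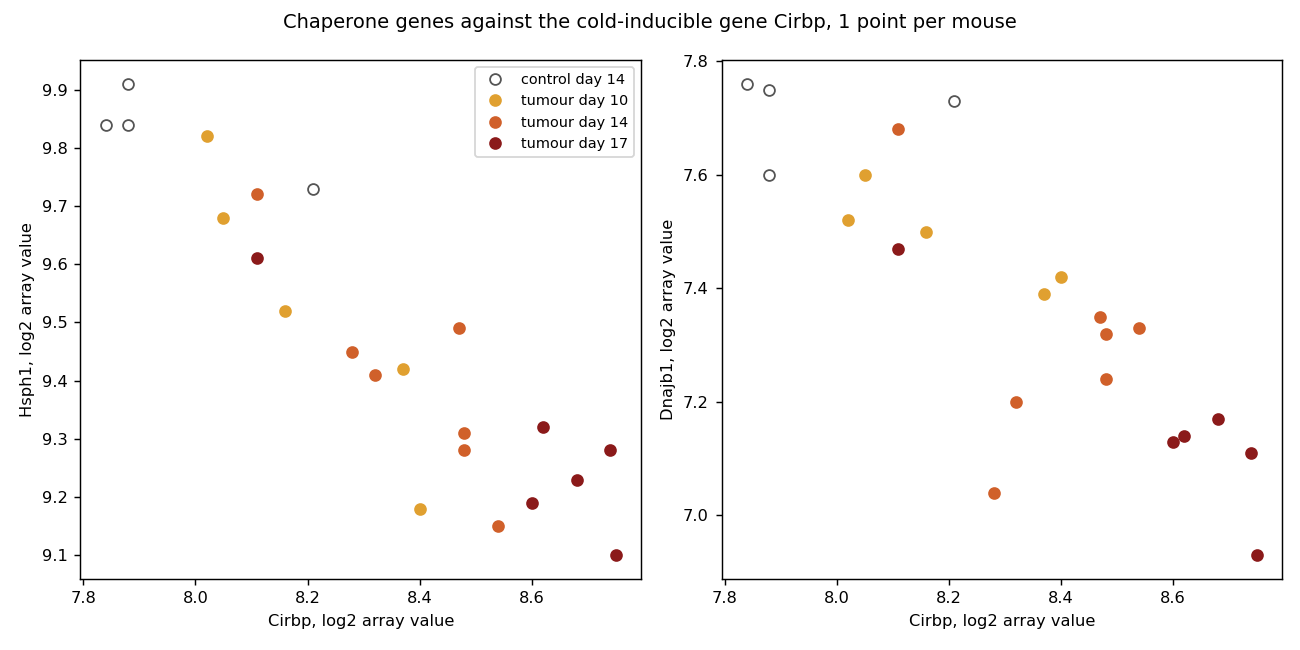
Log2 array value of Hsph1 (left) and Dnajb1 (right) on the vertical axis against that of Cirbp on the horizontal axis, with 1 point per mouse, open circles for the 4 controls and filled circles for the tumour-bearing mice by day. Over all groups pooled, mice with more Cirbp tended to have less of either chaperone gene. The genes were chosen with their day 17 values known. No relation within day 14 or within day 17 passed after adjustment, and day 10 was not tested on its own. The axes do not start at 0.

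Over the 18 tumour-bearing mice of all 3 days, each of the 8 genes correlated negatively with Cirbp and with Rbm3. Pearson r with Cirbp ran from -0.885 (Hsph1, Spearman rho = -0.847) to -0.64 (Fkbp4, rho = -0.645), and that of Dnajb1 was -0.795 (rho = -0.794). With Rbm3 it ran from -0.736 to -0.555. The 8 genes were chosen for low values on day 17, and Rbm3 and Cirbp with their high values on that day known, so a negative sign over pooled days was largely fixed by the choice, and these values are given as a description with no test. In the later run (10 mice) r with Cirbp ran from -0.956 to -0.665, and in the earlier run (8 mice) from -0.795 to -0.34, with the days pooled in both. Within day 14 and within day 17, in a family of 32 tests, 0 relations passed after adjustment (smallest adjusted exact permutation p = 0.122). Day 10 was not tested on its own. Within day 14 (7 mice) Hsph1 gave r = -0.871 with Cirbp (exact permutation p = 0.0115, rho = -0.857 with exact permutation p = 0.0238) and -0.608 without the 2 mice farthest from the median. Dnajb1 gave r = -0.353 there (exact permutation p = 0.434), with rho = 0.0, and r = 0.752 without the 2 mice farthest from the median. With Cirbp within day 14, 2 of the 8 genes had an unadjusted exact permutation p below 0.05. With Rbm3, r within day 14 ran from -0.723 to 0.314, with 6 of 8 genes negative and 0 of 8 at an unadjusted exact permutation p below 0.05. Within day 17 (6 mice) Hsph1 and Dnajb1 gave -0.909 and -0.921 with Cirbp (exact permutation p = 0.0486 and 0.0181). They gave 0.244 and -0.336 without the 2 mice farthest from the median, so that relation with Cirbp rests on those mice. With Rbm3, r within day 17 ran from -0.961 to -0.503, and 3 of 8 genes had an unadjusted exact permutation p below 0.05. Without the 2 mice farthest in Rbm3, Hsph1 and Dnajb1 gave -0.958 and -0.934, while the 8 genes ran from -0.958 to 0.942. Such values rest on very few mice.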

How the data were processed

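Gene expression was measured with 1 array per mouse in 22 hypothalami. The deposited values are log2 probe set values that the authors made with RMA (background correction, normalization between arrays and probe summary), per the submitters' processing notes. For the RMA version, the genome build and the annotation of the arrays, the sources used here give nothing. Of 35556 probe sets, 21218 were paired with 1 gene, 1881 with several and 12457 were unnamed here. For each of 18820 genes the probe set with the highest mean was used, with no filter on low values. The background measure was the 95th percentile of the means of 1182 olfactory and vomeronasal receptor probe sets.

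A linear model of the 4 groups was fitted over all 22 arrays in limma 3.58.1 (R 4.3.3), using lmFit, contrasts.fit and eBayes with no trend and leaving 18 residual degrees of freedom, with two-sided tests and Benjamini-Hochberg adjustment over all genes. The labels describe separate mice, so p-values measure the spread between mice, and the number of arrays limits the precision. The fit was tested on simulated data. Array medians ran from 5.27 to 5.34 and correlations between arrays from 0.980 to 0.995, with 0 identical pairs. RNA of Hspa1a, Hspa1b, Hsp90ab1, Cryab and Hsf1 was not analysed here. The members and gene lists were chosen with earlier results of these data known. Members named in full were those past the threshold and, in role classes with none, the member with the smallest p. Genes of the other chaperone lists were named where they passed against control, or otherwise by the 2 smallest p. The correlations with Rbm3 and Cirbp were chosen after their values had been seen. Alternatives were a variance trend, array weights, centred or re-normalized arrays, genes above background, other choices of probe set, fewer groups, the run, a replicate block, a thalamus covariate and each array left out in turn.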

Additional observations from a re-analysis of the deposited data

Results flagged for a closer look

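The 12 members described in full were searched for mice far from the rest of their group, 48 sets of 4 to 7 values in all, and 2 stood out. Chance alone puts about 1 in 20 such sets forward. Chordc1 in tumour day 17 replicate 6 read 8.48, while the other 5 mice of that day read 7.96 to 8.15, and the gap took up 0.639 of the group's range, above the limit of 0.625 for 6 samples. Hsf2 in tumour day 10 replicate 1 read 7.11, while the other 4 mice read 7.23 to 7.27 (gap 0.736 of the range, limit 0.71 for 5 samples).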

How the results depend on the processing

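The count of members called lower on day 17 was 8 in the fit reported, where 211 of all genes were called. It was 3 when the fit held the day 17 and control arrays alone (81 of all genes) and 3 with a covariate for thalamus markers (93 of all genes). In the later run alone it was 0 (0 of all genes). Without the 4 arrays highest in thalamus markers, a setting chosen after seeing the data, it was also 0 (0 of all genes). With 1 array left out in turn it ran from 1 to 10, and the calls over all genes from 37 to 382. In all these fits the 8 genes had a change below 0 on day 17, but since they were chosen for passing on the same arrays, their kept sign supports nothing further. On day 14 the count was 0 in the fit reported (41 of all genes). It became 3 with a variance trend (93 of all genes) and 1 with genes above background only (68 of the genes kept). With 1 array left out it ran from 0 to 3. It was 3 without tumour day 14 replicate 6 (115 of all genes) and 1 without tumour day 17 replicate 6 (45 of all genes). Same-numbered mice of different groups correlated at -0.19 to 0.35 (median 0.12, 15 of 28 pairs above 0.1), against a median of -0.01 and 28 of 151 pairs above 0.1 for other numbers. The labels name nothing shared, so the numbers were not taken as pairing. Not every same-numbered pair was above 0.1, but a noisy pairing could miss that mark too. Whether same-numbered mice shared something was not tested. With the replicate block the counts were 7 on day 14, 13 on day 17, 2 from day 10 to day 17 and 2 along the line over days. Calls over all genes were then 140 on day 14 and 616 on day 17. For the comparisons between tumour days the calls over all genes are not given here. Those member counts are therefore not read as a result about the chaperones. The other settings (array weights, centring, a second quantile normalization, probe set rule, run term) gave 7 to 10 members on day 17 and 0 in the other comparisons. On day 17 they called 148 to 457 of all genes. No member change against control reversed past the threshold, and no scaling moved the median of all genes by 0.1. Among the members, signal limits only the Hspb1 and Dnajb6 probe sets near background.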

Other observations

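Protein degradation genes, which take over what chaperones do not refold, showed no called change. Of 17 measured ubiquitin and proteasome genes, 0 passed the limma threshold on day 10, day 14 or day 17 (0.106%, 0.218% and 1.12% of all genes did), and 2, 1 and 1 had an unadjusted p below 0.05, all lower (5.43%, 6.18% and 10.5% of all genes). On day 17, 12 of the 17 had a lower mean (53.7% of all genes did), with a median change of -0.02. The smallest p belonged to Ubqln1, a shuttle of ubiquitinated proteins, at -0.14 ± 0.06 (limma adjusted p = 0.212). Next came the catalytic proteasome subunit gene Psmb5, at -0.13 ± 0.07 (limma adjusted p = 0.324).

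Several members were read by more than 1 probe set, 9 in all. The second probe set of Ptges3 gave -0.39 on day 10, -0.27 on day 14 and -0.22 on day 17, against -0.01, -0.07 and -0.12 for the one used and -0.07, -0.09 and -0.15 for the remaining one. Of the 5 probe sets of Dnajb6, 4 lay between 0.01 and 0.03 on day 17, and 1, with a mean of 4.16 close to background, gave -0.26.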
